A study of Mus musculus with 4 samples.

Results

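The IFITM (interferon-induced transmembrane) genes examined here were *Ifitm1*, *Ifitm2*, *Ifitm3*, *Ifitm5* and *Ifitm6*, which form one cluster on mouse chromosome 7. All 5 are measured among the 19938 genes of the arrays, each read from its brightest probe set with that symbol alone. The family was picked with the 4OHT fold changes of these arrays known, so that its own changes are given below as a description. The arrays were made from ILC87-Ik1-ER cells, a line started from a thymic tumour of a single Ikarosf/f Lck-cre+ mouse, in which Cre driven by the T-cell promoter Lck had deleted Ikaros. The strain label is C57BL/6, while the study's methods give such mice a background that was only in part C57Bl/6. Both groups also carry the MigR1:Ik1-ER retrovirus, which encodes full-length Ikaros-1 fused to the hormone-binding part of the oestrogen receptor and, after an IRES, GFP, by which the cells had been sorted. A pair of samples was treated with 100 nM 4-hydroxytamoxifen (4OHT), which sends Ik1-ER into the nucleus, and another pair with the vehicle (EtOH), all for 24 h. Cells lacking Ik1-ER were not put on arrays with 4OHT, so that a response to Ikaros and one to 4OHT cannot be told apart here.

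IFITM proteins are small membrane proteins of the cell surface and the endosomes. They hold back the entry of many enveloped viruses at the step where virus and cell membranes fuse, and IFITM3 does so mainly in late endosomes. Several of their genes are classical targets of interferon, which acts through receptors and JAK kinases, although many stem and progenitor cells express them without interferon. *Ifitm1* and *Ifitm3* are also known from primordial germ cells, and *Ifitm5* encodes a protein of bone-forming osteoblasts.

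The values are RMA expression values on a log2 scale, and the array medians lay between 7.11 and 7.16. Presence calls are not given with them, and for a dim gene signal and background cannot be separated. The 7 measured T-cell marker genes of 9 listed were bright, with EtOH means of 10.58 to 13.29, whereas all measured markers of B cells (5), myeloid cells (9), erythroid cells (2) and natural killer cells (5) lay below the array medians with EtOH. Of 6 stromal and endothelial markers only *Cdh5* and *Vwf* lay below them, and *Pdgfrb* (11.42), *Pecam1* (9.51), *Col1a1* (7.90) and *Col1a2* (7.74) above. With 4OHT the T-cell marker *Cd3d* was lower (log2 fold change −0.94, limma adjusted p = 0.0172), the other 6 T-cell markers were not called, and 5 of the 7 had an unadjusted p under 0.05, beside 20.4% of all genes. Across probe sets the EtOH arrays correlated at r = 0.996 and the 4OHT arrays at r = 0.994. In such bulk samples fewer cells with a transcript and less transcript per cell cannot be told apart. Nothing says that the arrays of a group came from separate cultures, so that a p-value covers the spread of these samples alone, possibly a technical one.

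*Ifitm3* and *Ifitm2* were much lower with 4OHT, and the other 3 genes of the cluster were not called. *Ifitm3*, the member best known for blocking influenza virus, had log2 values of 8.89 and 9.03 on the EtOH arrays and 6.10 and 6.51 on the 4OHT arrays. Both 4OHT arrays lay far below both EtOH arrays, with the smallest difference between an array of each group at −2.38. The log2 fold change (4OHT minus EtOH) was −2.65 with a standard error of 0.16. The measured 4OHT signal was 15.9% of the EtOH signal, but it lay below the array medians, where signal may be background, and the share left could be lower. *Ifitm2*, a close relative that acts against viruses in endosomes, had log2 values of 9.57 and 9.69 with EtOH and 7.73 and 7.31 with 4OHT. Again the groups did not overlap, and the log2 fold change was −2.11 (standard error 0.16), a 4.31-fold lower signal in its brightest probe set, 10383756. The other *Ifitm2* probe sets, 10553299 and 10569014, fell less, with log2 fold changes of −1.70 and −1.30. The 4OHT arrays differed from each other by 0.41 for *Ifitm3* and 0.42 for *Ifitm2* in probe set 10383756, more than the EtOH arrays (0.14 and 0.12). Their order was opposite, as array 1 was the lower for *Ifitm3* and array 2 for this *Ifitm2* probe set. In *Ifitm2* probe set 10569014 4OHT array 1 was the lower, as for *Ifitm3*, with 6.87 against 6.91.

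**Figure D1:**
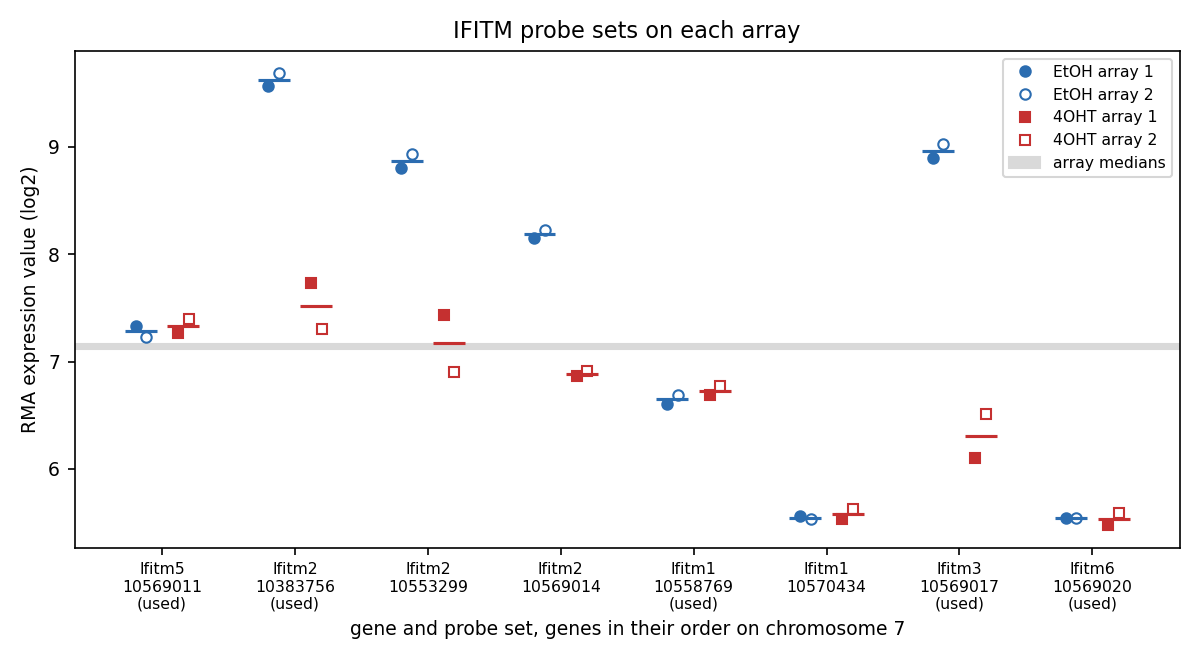
RMA expression values (log2) of the 8 IFITM probe sets on each of the 4 arrays, with short lines at the group means and the range of the array medians in grey. The EtOH arrays (blue) lie at least 1.24 above the 4OHT arrays (red) for *Ifitm3* and the 3 *Ifitm2* probe sets, while the groups overlap for *Ifitm5*, *Ifitm1* and *Ifitm6*.

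*Ifitm1*, which mostly acts at the cell surface, had values of 6.61 and 6.69 with EtOH and 6.69 and 6.77 with 4OHT. Its groups overlapped by a small margin, and the log2 fold change was 0.08 (standard error 0.079, 95% limma interval −0.13 to 0.29). The osteoblast gene *Ifitm5* had 7.33 and 7.23 with EtOH and 7.27 and 7.39 with 4OHT (log2 fold change 0.05, 95% limma interval −0.18 to 0.28). *Ifitm6* was the dimmest member, with 5.54 on each EtOH array and 5.48 and 5.59 with 4OHT (log2 fold change −0.01, 95% limma interval −0.22 to 0.19). The groups overlapped for these 3 genes, and the intervals hold changes of up to about the size of their upper and lower ends. Since *Ifitm1* and *Ifitm6* lay below the array medians on all arrays, a fall of either could not be seen if its signal is background. *Ifitm5* lay only a little above the medians (7.11 to 7.16), and the same limit may hold for it.

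Called here means an adjusted p under 0.05 from limma after Benjamini-Hochberg adjustment across the 35556 probe sets. By this rule 2 of the 5 IFITM genes were lower and none was higher, beside 2.99% of all genes lower and 1.23% higher. Arrays of the groups did not overlap for the same 2 genes, as for 56.6% of all genes. Because the fold changes were known when the family was picked, nothing is read from these counts. Leaving out an array kept the size of the falls, with log2 fold changes of −2.86 to −2.45 for *Ifitm3* and −2.32 to −1.90 for *Ifitm2*, but without EtOH replicate 1 or without EtOH replicate 2 no gene on the array was called, these 2 included.

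**Figure D2:**
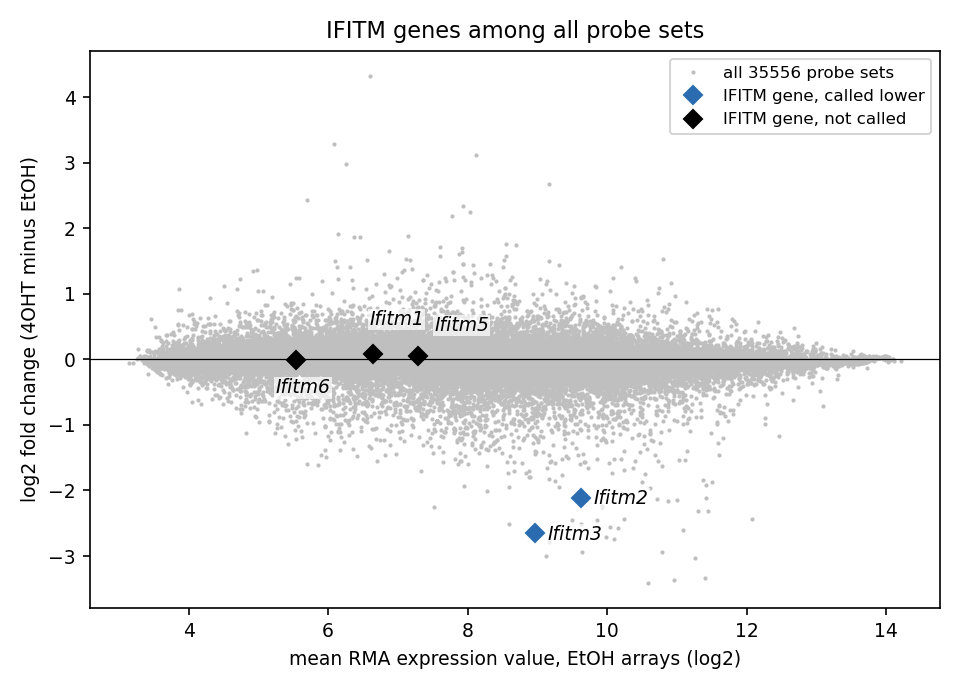
Log2 fold change (4OHT minus EtOH) against the mean log2 value on the EtOH arrays for all 35556 probe sets, with the 5 IFITM genes as diamonds. *Ifitm3* and *Ifitm2* lie at the lower edge at −2.65 and −2.11, and *Ifitm1*, *Ifitm5* and *Ifitm6* lie between −0.01 and 0.08 among dimmer probe sets.

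Several probe sets were annotated to the same member. The 3 probe sets of *Ifitm2* (10383756, 10553299 and 10569014) were all called lower, beside 3.16% of all probe sets called in either direction, but by different amounts, at −2.11, −1.70 (standard error 0.19) and −1.30 (standard error 0.075). The mean over the 3 gave a log2 fold change of −1.70. Probe set 10569014 had values of 8.15 and 8.23 with EtOH and 6.87 and 6.91 with 4OHT, and so the closest replicates and the smallest fall. Its number lies next to those of *Ifitm5*, *Ifitm3* and *Ifitm6*, among 17 probe sets of chromosome 7 genes, whereas the 20 nearest annotated numbers to 10383756, the brightest of the 3, all belong to genes of chromosome 11. All 3 carry the *Ifitm2* transcript in the annotation, and the sources used here do not give the probes, so that signal from a near-identical copy, or from *Ifitm3* in an *Ifitm2* probe set, cannot be told apart from *Ifitm2* itself. The second probe set of *Ifitm1* (10570434) also showed little difference, with 5.56 and 5.53 with EtOH against 5.54 and 5.63 with 4OHT (log2 fold change 0.04).

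In the RefSeq annotation of assembly GRCm38.p6, the 5 genes lie within 67.9 kb of chromosome 7 in the order *Ifitm5* (140948958 to 140950243), *Ifitm2* (140954837 to 140959686), *Ifitm1* (140967429 to 140969827), *Ifitm3* (141009590 to 141010744) and *Ifitm6* (141015812 to 141016892). *Ifitm1*, which was not called, thus lies between the 2 genes that fell, and it is transcribed on the plus strand while the other members are on the minus strand. Of the 10 measured protein-coding genes on each side of the cluster none was called by limma, beside 4.23% of all genes called in either direction. At an unadjusted p under 0.05 there were 4 of the 20, beside 20.4% of all genes. Their median log2 fold change was 0.11, against 0.03 over all genes. The nearest on the *Ifitm5* side was *Pgghg*, which encodes an enzyme that takes glucose off collagen, with 8.73 and 8.94 with EtOH and 8.35 and 8.24 with 4OHT (log2 fold change −0.54, limma adjusted p = 0.0825). The nearest on the *Ifitm6* side was *B4galnt4*, a glycosyltransferase gene, with 7.64 and 7.68 against 7.35 and 7.27 (log2 fold change −0.35, limma adjusted p = 0.1005). Both had 4OHT arrays below both EtOH arrays, as had 24.5% of all genes, and both passed in a fit over probe sets with 1 gene symbol alone (limma adjusted p = 0.00311 and 0.0160), which called 1739 genes lower and 1002 higher.

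**Figure D3:**
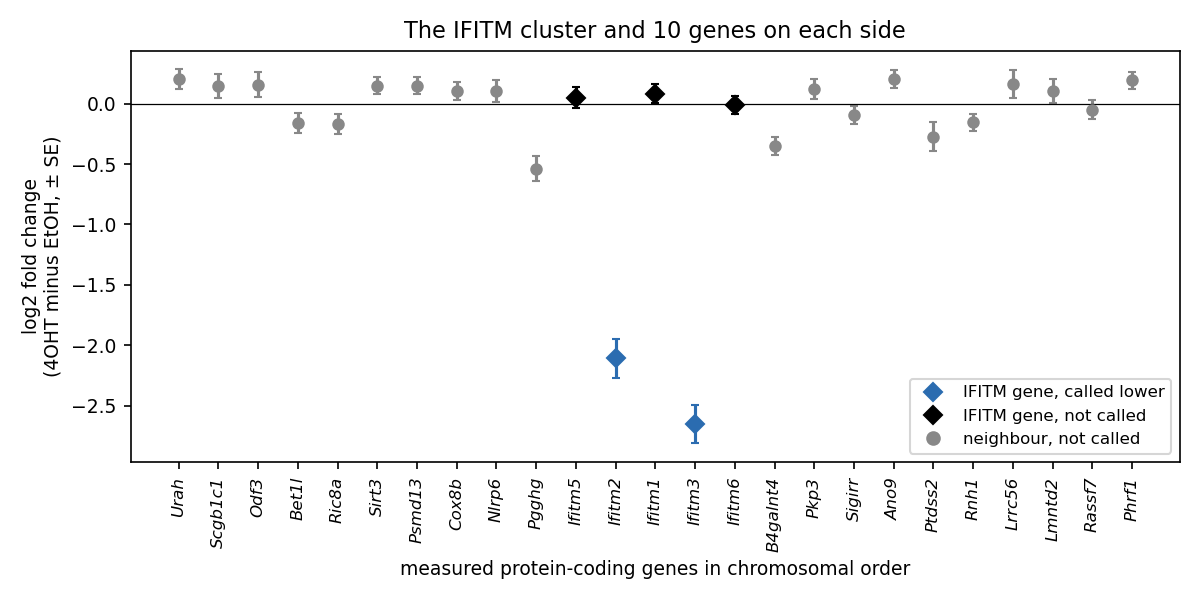
Log2 fold change (4OHT minus EtOH, bars ± standard error from limma) of the 5 IFITM genes and the 10 nearest measured protein-coding genes on each side, in chromosomal order. *Ifitm2* and *Ifitm3* stand at −2.11 and −2.65 on either side of *Ifitm1*, and the neighbours lie between −0.54 and 0.20. *Ifitm2* is drawn from probe set 10383756, and its probe set numbered among those of the cluster, 10569014, had a log2 fold change of −1.30.

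The promoters of *Ifitm2* and *Ifitm3* are shown because these genes fell, and that of *Ifitm1* because it lies between them and was not called. The 250 bases before each RefSeq start are given 5′ to 3′ on the gene's own strand, from assembly GRCm38.p6, at chr7:141010745-141010994 (*Ifitm3*, minus strand), chr7:140955962-140956211 (*Ifitm2*, minus strand) and chr7:140967826-140968075 (*Ifitm1*, plus strand). Capitals mark AGGAA and the repeat bound by interferon-activated factors (GAAA, any 2 bases, GAAA), each searched on both strands. The study found AGGAA highly enriched among Ikaros peaks, and it also describes GGAA and GGGA as known to bind Ikaros. These shorter motifs were not searched on their own. They occur without capitals in all stretches printed below, that of *Ifitm1* included. A stretch without capitals can thus still hold sequences that Ikaros may bind. The starts of *Ifitm2* and *Ifitm1* in the promoter table lie inside the longer gene spans given above.
Ifitm3: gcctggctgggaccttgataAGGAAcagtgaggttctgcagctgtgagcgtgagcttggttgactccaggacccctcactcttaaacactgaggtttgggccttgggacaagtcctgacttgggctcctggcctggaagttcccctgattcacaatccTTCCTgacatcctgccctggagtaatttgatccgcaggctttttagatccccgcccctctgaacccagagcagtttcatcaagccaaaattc
Ifitm2: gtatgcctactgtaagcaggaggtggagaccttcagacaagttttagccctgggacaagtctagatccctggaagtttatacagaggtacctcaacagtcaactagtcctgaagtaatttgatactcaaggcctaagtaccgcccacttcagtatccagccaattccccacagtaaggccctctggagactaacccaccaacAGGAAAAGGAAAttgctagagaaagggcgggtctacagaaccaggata
Ifitm1: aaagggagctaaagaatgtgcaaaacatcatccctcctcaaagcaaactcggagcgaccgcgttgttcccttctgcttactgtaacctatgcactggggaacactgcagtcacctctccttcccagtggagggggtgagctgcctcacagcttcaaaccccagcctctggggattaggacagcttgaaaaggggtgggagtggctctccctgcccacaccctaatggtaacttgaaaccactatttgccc
In *Ifitm2* and *Ifitm3* AGGAA and the GAAA repeat overlap in a shared run of 12 bases, AGGAAAAGGAAA. With the base before it, this run is the longest identical stretch of these promoters (13 bases). It begins 48 bases before the *Ifitm2* start and at the first base of the *Ifitm3* transcript, as in these windows with the run in capitals (chr7:140955989-140956018 and chr7:141010724-141010753, minus strand).
Ifitm2 window: cccaccaacAGGAAAAGGAAAttgctagag
Ifitm3 window: ccaaaattcAGGAAAAGGAAActtctgaga

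Among all 32851 promoter entries of 300 bases (250 before and 50 from the start), AGGAA occurred in 66.7%, the GAAA repeat in 3.44% and the run AGGAAAAGGAAA in 17 entries (0.0517%). AGGAA itself did not separate the members, as it occurred 4 times each in the windows of *Ifitm3* and *Ifitm6*, 2 times in that of *Ifitm2* and once each in those of *Ifitm1* and *Ifitm5*. The GAAA repeat occurred 2 times in *Ifitm3*, at positions 3 and 20 from the start, and once in *Ifitm2*, and it was not found in the windows of *Ifitm1*, *Ifitm5* and *Ifitm6*. TTCNNNGAA, the sequence bound by STAT dimers, was found in *Ifitm3* and *Ifitm6* and in 8.30% of all entries. Of 5 other measured genes with the run, 1 was called lower, beside 2.99% of all genes. It was *Selenop*, which encodes a plasma selenoprotein (log2 fold change −0.58, limma adjusted p = 0.0348), while *Clec4d*, *Igsf10*, *Rpl4* and *Tnpo2* were not called. Of 605 other measured genes with the GAAA repeat, 3.8% were lower and 1.49% higher, beside 2.99% and 1.23% of all genes, and the median log2 fold change was 0.03 in both. The run was noticed in these sequences after the fold changes were known, and a match of letters does not show binding.

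Relatives of the IFITM genes outside the cluster, the dispanins, share their membrane topology. None of the 7 measured genes of 10 listed was called by limma, beside 4.23% of all genes, and 4 had an unadjusted p under 0.05, beside 20.4%. All 7 had a log2 fold change above 0, as had 57.7% of all genes, and the median was 0.22 against 0.03 over all genes. They included *Ifitm10* on the same chromosome (0.22, limma adjusted p = 0.217) and *Ifitm7* on chromosome 16 (0.05, limma adjusted p = 0.762). *Prrt1*, a synaptic dispanin, was the highest, with 8.55 and 8.64 with EtOH and 9.12 and 9.02 with 4OHT (log2 fold change 0.47, limma adjusted p = 0.0672) and no overlap of the groups, as for the 32.1% of all genes whose 4OHT arrays both lay above the EtOH arrays. It was followed by *Trarg1*, which takes part in glucose transporter traffic (0.35, limma adjusted p = 0.178). *Prrt1* passed after the arrays were quantile-normalized again (limma adjusted p = 0.0494) and with a minimum mean log2 value of 6 (0.0466).

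Of the genes whose products bind or modify IFITM proteins, 17 of 18 listed were measured. Of these 1 was lower and none higher, beside 2.99% and 1.23% of all genes, with a median log2 fold change of −0.10. The 1 gene was *Fyn*, whose tyrosine kinase phosphorylates IFITM3 and which also serves T-cell receptor signalling, with 11.03 and 11.14 with EtOH and 10.50 and 10.48 with 4OHT (log2 fold change −0.60, standard error 0.079, limma adjusted p = 0.0379). It was not called without any 1 of the 4 arrays (limma adjusted p of 0.105 to 0.202). *Cd81*, a tetraspanin that associates with IFITM1, was bright and nearly level, with 12.25 and 12.37 against 12.32 and 12.38 (log2 fold change 0.03, limma adjusted p = 0.854). The tetraspanin gene *Cd9* had a log2 fold change of −0.09 (limma adjusted p = 0.597). *Zmpste24*, a membrane protease needed for IFITM function against viruses, had 11.12 and 11.16 against 10.85 and 10.90 (log2 fold change −0.27, limma adjusted p = 0.155). The genes of the AP-2 adaptor, which takes IFITM3 up from the cell surface, and those of the modifying enzymes *Nedd4*, *Setd7*, *Kdm1a* and *Zdhhc20* lay between −0.16 and 0.12.

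Of the interferon signalling genes, 3 of 17 measured were higher and none was lower, beside 1.23% of all genes higher. *Il10rb*, the receptor chain shared by interferon lambda and interleukin-10, had 6.59 and 6.49 with EtOH and 7.65 and 7.59 with 4OHT (log2 fold change 1.07, standard error 0.079, limma adjusted p = 0.0138). *Ifngr1*, the ligand-binding chain of the interferon gamma receptor, rose from 10.40 and 10.27 to 11.29 and 11.12 (log2 fold change 0.87, limma adjusted p = 0.0268). *Socs1*, which encodes the inhibitor that shuts off JAK signalling, rose from 8.50 and 8.86 to 9.70 and 9.98 (log2 fold change 1.16, limma adjusted p = 0.0432). The type I receptor genes *Ifnar1* (log2 fold change 0.13, limma adjusted p = 0.526) and *Ifnar2* (0.41, limma adjusted p = 0.0916) did not pass. Neither did the transcription factor genes *Stat2* (0.23, limma adjusted p = 0.202), *Irf9* (−0.05, limma adjusted p = 0.858) and *Irf1* (0.41, limma adjusted p = 0.193). The median of the 17 genes was 0.13, and 8 of them had an unadjusted limma p under 0.05, beside 20.4% of all genes. Without EtOH replicate 1, EtOH replicate 2 or 4OHT replicate 2 none of the 17 was called, and without 4OHT replicate 1 only *Il10rb* was.

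Most interferon-stimulated genes were not called. Of 31 measured genes of 36 listed, 2 were lower, 2 higher and 27 not called, beside 2.99% of all genes lower and 1.23% higher, with a median log2 fold change of −0.05. However, 18 of the 31 had an unadjusted limma p under 0.05, beside 20.4% of all genes. The log2 fold change was below 0 for 17 of the 31 and above 0 for 14. *Eif2ak2*, which encodes the kinase PKR that senses double-stranded RNA, fell from 8.70 and 8.53 to 7.53 and 7.43 (log2 fold change −1.14, standard error 0.096, limma adjusted p = 0.0166). *Ifih1*, which encodes the RNA sensor MDA5, fell from 7.09 and 7.31 to 6.20 and 6.19 (log2 fold change −1.01, limma adjusted p = 0.0215). *Zbp1*, a sensor of Z-form nucleic acids, rose from 7.70 and 7.38 to 8.51 and 8.68 (log2 fold change 1.06, limma adjusted p = 0.0366), and the viperin gene *Rsad2* from 6.05 and 5.96 to 6.65 and 6.59 (log2 fold change 0.61, limma adjusted p = 0.0346). None of the 31 changed as much as *Ifitm2* or *Ifitm3* on the log2 scale, but the IFITM family was picked with its fold changes known, so nothing is read from this. Over probe sets with 1 gene symbol alone 16 of the 31 were called, in a fit that called 1739 of the 19938 genes lower and 1002 higher. With any 1 array left out most of the calls of the main fit were lost.

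**Figure D4:**
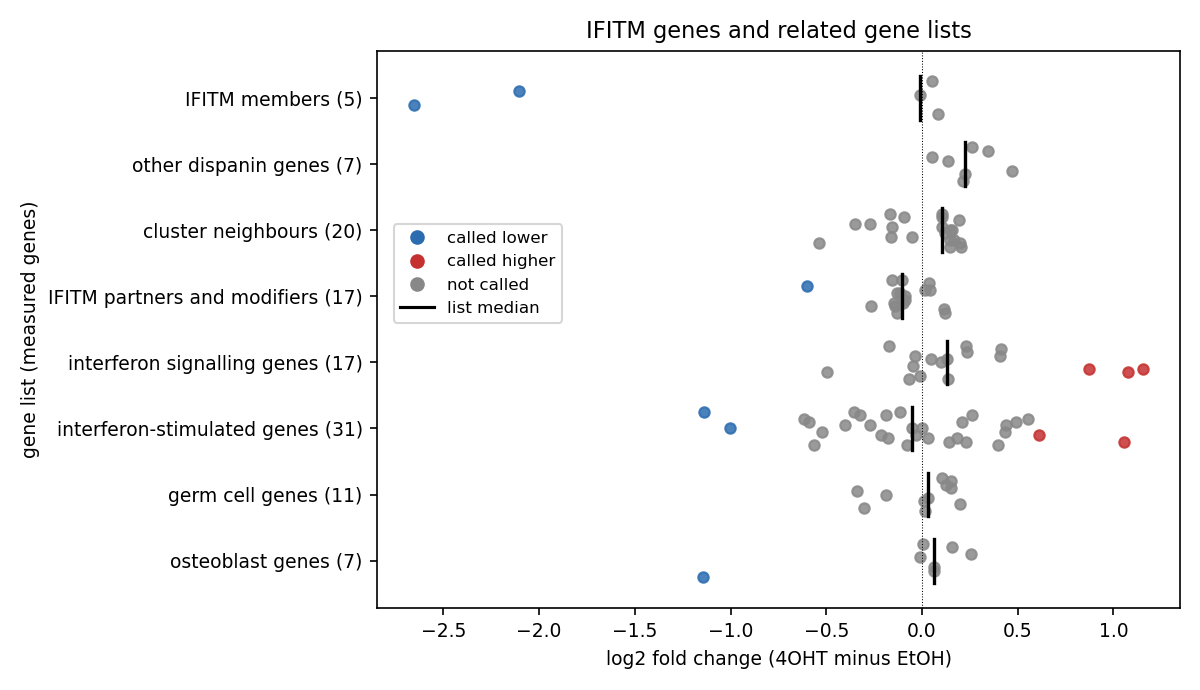
Log2 fold change (4OHT minus EtOH) of the 5 IFITM genes and of each measured member of 7 gene lists, with list medians as black lines. *Ifitm3* and *Ifitm2*, of a family picked with its fold changes known, lie further to the left (−2.65 and −2.11) than any other gene shown. The called interferon genes lie on both sides of 0.

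Germ cells and bone are tissues in which IFITM genes are also studied. Of 11 germ cell genes none was called by limma, beside 4.23% of all genes, 3 had an unadjusted p under 0.05, beside 20.4%, and 9 of the 11 lay below the array medians with EtOH. The largest differences were those of the receptor gene *Kit* (7.20 and 7.21 with EtOH, 6.83 and 6.90 with 4OHT, limma adjusted p = 0.102) and of *Prdm1*, which encodes the repressor Blimp-1 (log2 fold change −0.30, limma adjusted p = 0.166). Both passed over probe sets with 1 gene symbol alone (limma adjusted p = 0.0177 and 0.0396), in a fit that called 1739 genes lower and 1002 higher. Of 7 measured osteoblast genes of 11 listed, 1 was called, beside the same 4.23% of all genes. It was *Alpl*, which encodes tissue-nonspecific alkaline phosphatase and was lower (10.31 and 10.61 against 9.42 and 9.21, log2 fold change −1.14, limma adjusted p = 0.0316), and it was not called without any 1 of the 4 arrays (limma adjusted p of 0.0623 to 0.164). The *Ifitm5* partner gene *Fkbp11* had a log2 fold change of −0.01 (limma adjusted p = 0.950). Of 9 measured myeloid markers, *Lyz2* was lower and *Itgam* higher (log2 fold changes −1.24 and 0.68), beside 2.99% and 1.23% of all genes, and their summed signal, on the linear scale, was 599 to 619 with EtOH and 628 to 633 with 4OHT, with all 9 below the array medians with EtOH. *Pdgfrb*, listed as a stromal marker, was bright with EtOH (11.35 and 11.50) and fell by 1.92 on the log2 scale with 4OHT. Their part in the fall of the IFITM genes was not tested.

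The genes whose profile over the 4 arrays was most like that of *Ifitm3* were *Clec11a*, *Gpr83*, *Cdh1*, *Ctnnd1* and *Smpdl3b*, chosen from 18203 genes by the smallest root mean square difference after centring each gene on its own mean. The difference was between 0.10 and 0.17 on the log2 scale. *Clec11a*, which encodes a secreted growth factor of the bone marrow, was the closest, with 9.81 and 9.89 with EtOH and 7.19 and 7.60 with 4OHT. It had the same order of arrays within each group as *Ifitm3*, as had *Gpr83* and *Cdh1*, but not *Ctnnd1* and *Smpdl3b*. *Gpr83*, an orphan receptor gene, *Cdh1*, the E-cadherin gene, and *Ctnnd1*, the p120 catenin gene, had log2 fold changes of −2.71, −2.74 and −2.56, and *Smpdl3b*, which encodes a lipid-modifying phosphodiesterase, one of −2.44. Over 4 arrays in 2 groups this measure is set mainly by the size of the fall.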

How the data were processed

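The 4 arrays (Affymetrix Mouse Gene ST 1.0) were grouped by the treatment in their labels, 2 with EtOH and 2 with 4OHT. The log2 values of 35556 probe sets are as deposited, and per the labels the authors made them by RMA in Affymetrix Expression Console 1.1. RMA subtracts background, equalizes the distributions of all arrays and combines the probes of a set, so that a shift common to most genes is lost and differences of dim probe sets shrink. The sources used here name no genome build for the probe sets. Of all probe sets 21789 have 1 gene symbol, 1621 several and 12146 none, and 21698 symbols were brought up to date by Entrez number with RefSeq (GRCm38.p6), whose gene positions and promoters were matched for all 5 members.

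The groups were compared on these values with limma 3.58.1 in R 4.3.3 (lmFit and eBayes, two-sided, all probe sets, no block), with 2 residual and 2.66 prior degrees of freedom. The number of arrays limits the precision, and an exact permutation test of 2 against 2 cannot go below p = 0.33. The scripts were tested on simulated data. The members, the gene lists and their tests were chosen with earlier results of these data known. Genes named were the 5 members, the nearest neighbours, 8 fixed genes that were measured, up to 5 called genes of a list (or the 2 largest changes where none was called) and the 5 profiles nearest to *Ifitm3*. Other relatives, partners, markers and genes with the promoter run illustrate a count. No set test was run. Alternatives were a block on sample number, renormalization, centring, a filter, other probe set choices, an intensity trend, other thresholds and leaving out each array.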

Additional observations from a re-analysis of the deposited data

How the results depend on the processing

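*Ifitm2* and *Ifitm3* stayed lower under all alternatives run, and 2 IFITM genes were called in each except the following. With the sample number as a replicate block 1 of 5 was called (*Ifitm3*; limma adjusted p = 0.0601 for *Ifitm2*), and at an adjusted p under 0.01 also 1. With each array left out in turn 0 to 2 were called, 0 without EtOH replicate 1 or 2, where the adjusted p of *Ifitm3* was 0.112 and 0.133 and that of *Ifitm2* 0.123 and 0.147 in fits with 1 residual degree of freedom. In these fits the lone array of a group is assumed to vary like the other group's arrays. The labels do not say whether the numbers pair the samples. The deviations of same-numbered arrays from their group means correlated at r = −0.13, but with 2 arrays per group this cannot settle whether samples were paired. With crossed numbers as a block, chosen after seeing the data, 2 IFITM genes and 0 of the partner genes were called.

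In place of 1123 probe sets, 42 were called with the replicate block, 2938 were called over probe sets with 1 symbol alone, 95 under 0.01, 2316 under 0.1 and 0 to 454 with an array left out. In that order of settings, interferon signalling genes called numbered 0, 6, 0, 4 and 0 to 1 in place of 3, and interferon-stimulated genes 0, 16, 0, 10 and 0 to 1 in place of 4, or 8 where probe sets had to average at least 6 on the log2 scale. The partner and osteoblast lists had 0 called with the block, under 0.01 and without any 1 array (0 to 0), in place of 1 each. Over probe sets with 1 symbol alone 2 of 11 germ cell genes, 2 of 7 dispanins and 2 of 20 cluster neighbours were called, in place of 0. That fit called 1739 of the 19938 genes lower and 1002 higher. Another quantile normalization, the minimum value of 6 and the threshold of 0.1 each gave 1 dispanin, and the last also 1 neighbour. Near 0, signs turned with an array left out: the log2 fold changes were −0.013 to 0.11 for *Ifitm5*, −0.066 to 0.042 for *Ifitm6*, −0.025 to 0.094 for *Cd81* and −0.18 to 0.083 for *Irf9*, and the cause was not tested. *Ifitm6* has no value with the minimum of 6. The blocked fit changed no other IFITM call.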
